A study of Homo sapiens with 6 samples.

Results

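The nuclear receptors are a family of transcription factors, and the 46 genes listed here as its human members were compared between A2780 cells and an A2780 clone edited in CDK12. The members were taken by gene symbol from the 60483 genes of the count table, whatever their level, and all 46 were found there. A2780 is an ovarian carcinoma cell line, and CDK12 is a cyclin-dependent kinase that phosphorylates RNA polymerase II during transcription elongation. The WT group held 3 libraries of unedited A2780 cells and the KO group 3 libraries of the A2780 CDK12 KO line. Both groups were grown in RPMI medium with fetal serum and glutamine, and no drug or hormone is named for the sequenced cells. The KO line was made with a CRISPR/Cas9 plasmid (U6gRNA-Cas9-2A-GFP) aimed at exon 1 of CDK12, and it is 1 clone that came out of repeated transfection and selection. Differences between this clone and the parental cells that have nothing to do with CDK12 cannot be told apart from those that follow its loss. The labels do not say whether the libraries of a group came from separate cultures, so the p-values measure only the spread between these libraries, which may be technical.

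A nuclear receptor carries a zinc-finger domain that reads a short DNA element and, in most members, a pocket that binds a small lipid-soluble ligand. Steroid receptors bind DNA mainly as pairs of the same protein, retinoid, thyroid, vitamin D and fatty acid receptors pair with a retinoid X receptor, and the orphan receptors have no agreed natural ligand or work without one. Bound to DNA, the receptors recruit coactivators or corepressors. In ovarian tissue they are best known for the responses to oestrogen and progesterone and for the control of steroid synthesis.

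The files held raw counts, and the totals of the 6 libraries ranged from 11098400 to 30899045. A floor of 3 counts corresponded to between 0.1 and 0.27 CPM, a count scaled to the TMM-adjusted size of its library, and these floors cover counting error only. Of all genes, 16198 passed the filter on low counts of edgeR and were tested. Libraries of the same group differed by more than counting error, at 1.65 to 6.42 in chi-square per degree of freedom. CDK12 itself was counted in every library, at 103 to 125 CPM in WT and 93.0 to 102 CPM in KO (log2 fold change -0.23, adjusted p = 8.2e-04 by edgeR), and a count per gene cannot tell an edited transcript from an unedited one. Of 11 markers listed for ovarian carcinoma epithelium, 4 were tested, and PAX8, WT1, MUC16, SOX17, CDH1 and KRT7 averaged at most 0.2 CPM in each group. The summed level of the 11 was 69.3 to 75.3 CPM in WT and 116 to 121 CPM in KO, most of it KRT18. All 8 fibroblast markers were tested and their summed level was between 11200 and 11600 CPM in WT and between 8680 and 8960 CPM in KO. By edgeR's test (adjusted p under 0.05), 6 of them fell, THY1 rose (from 113 to 136 CPM) and COL3A1, the most abundant, missed the threshold at 6010 CPM in WT and 5960 CPM in KO. COL1A1 fell from 629 ± 25.1 to 122 ± 9.98 CPM (SD, n = 3 each) and PDGFRA from 90.7 ± 1.3 to 14.8 ± 1.51 CPM, whereas DCN and LUM, the defining proteoglycans, averaged under 1 CPM in WT and were at 0 counts in KO. The 4 granulosa markers summed to 17.0 to 19.6 CPM in WT and 13.8 to 14.0 CPM in KO. FOXL2 fell from 11.6 to 3.66 CPM, INHA rose from 2.67 to 5.73 CPM, AMH missed the threshold (3.99 and 4.52 CPM) and FSHR was at 0. Leukocyte, endothelial and hepatocyte markers summed to less than 1 CPM in every library, and of these only VWF was tested, which rose from 0.192 to 0.704 CPM. The part of the fibroblast, granulosa and endothelial markers in the results that follow was not tested.

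Of the 46 nuclear receptors, 28 passed the filter. All tests were edgeR's quasi-likelihood test, with p-values adjusted by Benjamini-Hochberg over all tested genes. A gene past both thresholds had an adjusted p below 0.05 together with a log2 fold change (log2FC, KO minus WT, given with its standard error, SE) beyond 1 in either direction. Past both thresholds, 6 receptors were higher in KO, where 8.3% of all tested genes were called higher, and 6 were lower, where 7.73% of all tested genes were called lower. The higher receptors were NR3C1, NR5A2, HNF4G, ESR2, RORA and NR2F2. The lower ones were NR2F1, NR4A1, NR4A2, NR4A3, NR6A1 and PPARG. At the adjusted p alone, 13 receptors were higher and 11 lower, against 31.9% and 32.0% of all tested genes. The values of the WT and KO libraries did not overlap for 27 of the 28 tested receptors, and for 66.4% of all tested genes. The 28 include 5 that passed the filter only through the KO libraries (RORA, HNF4G, ESR2, NR3C1 and NR5A2) and 2 that passed only through the WT libraries (NR2F1 and NR4A3), which had to differ to be tested at all. For each of the 12 receptors past both thresholds the exact permutation test of log2 CPM gave p = 0.1 (two-sided), the smallest p that 3 libraries against 3 allow. In these bulk samples, fewer cells that express a gene and less RNA of it per cell cannot be told apart.

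**Figure D1:**
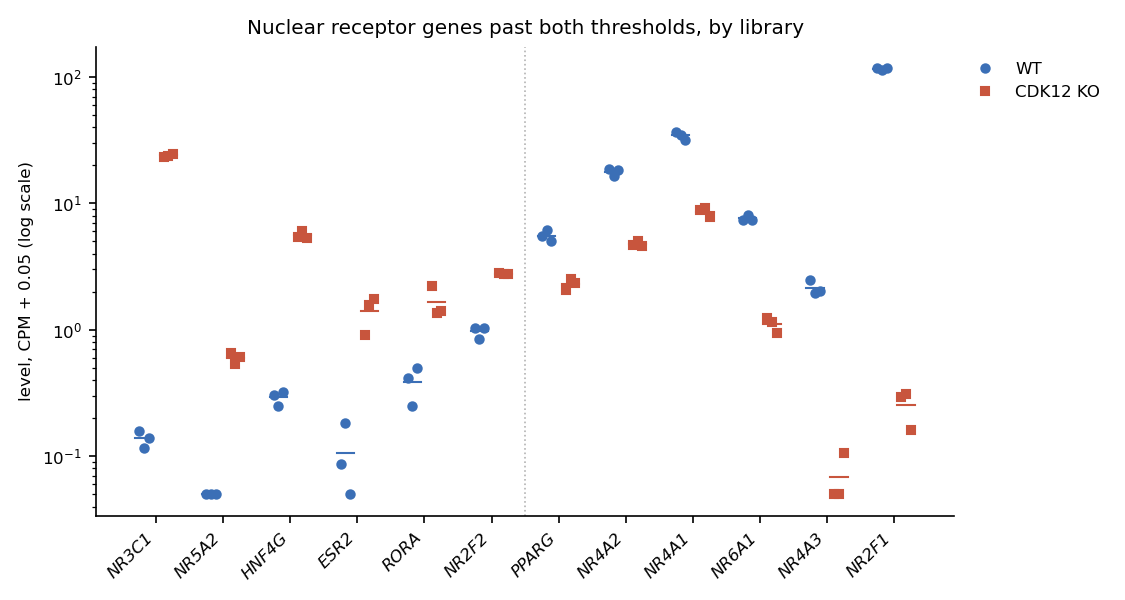
Level of the 12 nuclear receptor genes past both thresholds in each library, as CPM plus 0.05 on a log scale. Points are libraries (circles WT, squares CDK12 KO), short lines are the means of 3 libraries, and genes left of the dotted line were higher in KO. NR3C1 lay between 23.3 and 24.5 CPM in KO, and NR2F1 between 113 and 117 CPM in WT, and the groups did not overlap for any of the 12 genes.

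Among the steroid receptors, NR3C1 (ENSG00000113580), which encodes the glucocorticoid receptor, went from near absence to a moderate level. It lies on the minus strand of chromosome 5, from 143277931 to 143435512 (GRCh38). Its counts were 3, 2 and 1 in WT and 573, 642 and 436 in KO. In CPM this was 0.109, 0.0668 and 0.090 in WT, and 23.3, 23.8 and 24.5 in KO. Every WT library thus held no more than the floor of 3 counts, and the KO libraries differed among themselves by far less than from WT. The log2FC was 8.0 (SE 0.191, adjusted p = 6.3e-27 by edgeR), and the ratio of the scaled counts was 272 with a 95% exact interval from counting of 125 to 742. Leaving out single libraries kept the log2FC between 7.76 and 8.24.

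ESR2 (ENSG00000140009), which encodes oestrogen receptor beta, rose from a few counts. It was counted 1, 4 and 0 times in WT and 21, 41 and 30 times in KO, which is 0.855 to 1.69 CPM in KO. All KO libraries lay above all WT libraries, with a log2FC of 4.09 (SE 0.476, adjusted p = 5.83e-09 by edgeR) and a count ratio of 18.2 (95% exact interval from counting, 7.52 to 57.3). Without WT replicate 2, which held 4 of the 5 WT counts, the log2FC was 5.39. ESR2 lies on the minus strand of chromosome 14, from 64084232 to 64338112, and overlaps SYNE2 on the opposite strand. SYNE2 was counted between 590 and 1640 times per library and fell slightly, by 0.25 on the log2 scale. A long non-coding RNA on the same strand as ESR2, ENSG00000214770, also overlaps it and was counted 19, 13 and 8 times in WT and 40, 57 and 31 times in KO. The library kit marks strand, but the strand setting of the counting is not given in the sources used here, and without strand the reads of ESR2 and SYNE2 cannot be told apart.

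The other steroid receptors were at the floor or near it. ESR1, oestrogen receptor alpha, was counted once in a single WT library and once in a single KO library. PGR, the progesterone receptor, had no count in any library. NR3C2 encodes the mineralocorticoid receptor, the closest relative of NR3C1 in the family, and was counted 2, 0 and 0 times in WT and 9, 7 and 9 times in KO. It did not pass the filter. The count ratio was 12.4 (95% exact interval from counting, 3.08 to 108), and with no filter beyond 1 count in total its log2FC was 3.41 (SE 0.789, adjusted p = 7.61e-05 by edgeR). Of the oestrogen-related receptors, orphan factors of mitochondrial genes, only ESRRA was tested. ESRRA was at 44.7, 46.3 and 47.3 CPM in WT and 40.6, 42.7 and 43.1 CPM in KO, a log2FC of -0.13 that missed the threshold (adjusted p = 0.0535 by edgeR). ESRRA was past it without WT replicate 1, with -0.15 (adjusted p = 0.0344 by edgeR). ESRRB and ESRRG had at most 7 counts in a library.

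NR5A2 (ENSG00000116833), also called LRH-1, is a phospholipid-binding receptor known for the control of bile acid and steroid synthesis. It spans 200027614 to 200177420 on the plus strand of chromosome 1. It had no count in the WT libraries and 15, 13 and 10 counts in the KO libraries, or 0.483 to 0.61 CPM. Against a floor of 3 counts over the WT group, NR5A2 was at least 12.5-fold higher in KO. edgeR called it higher (adjusted p = 1.82e-07), and its fitted log2FC, 6.67 in edgeR, 5.97 in DESeq2 and 4.57 in voom/limma, is no bound, since the WT group is at 0. The related NR5A1, steroidogenic factor 1, was counted at most 2 times in a library. The receptors without a DNA-binding domain, NR0B1 and NR0B2, which act on NR5A proteins as repressors, had no count and a single count.

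The COUP-TF genes NR2F1 and NR2F2 moved in opposite directions. NR2F1 (ENSG00000175745), an orphan receptor of neural crest and brain development, was among the most abundant receptors of WT cells and nearly absent from KO cells. It was counted 3211, 3380 and 1294 times in WT and 6, 7 and 2 times in KO. These counts equal 117, 113 and 117 CPM in WT and 0.244, 0.260 and 0.112 CPM in KO. The WT libraries agreed closely with each other and stood far above all KO libraries. The log2FC was -9.02 (SE 0.120, adjusted p = 4.57e-34 by edgeR) and the WT counts were 532 times the KO counts (95% exact interval from counting, 322 to 951). NR2F1 lies on chromosome 5 from 93583222 to 93594611, on the plus strand. Its antisense partner NR2F1-AS1, which overlaps it, was counted 263, 219 and 81 times in WT and not at all in KO. As for ESR2 and SYNE2, without strand the reads of NR2F1 and NR2F1-AS1 cannot be told apart where the genes overlap.

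NR2F2 (ENSG00000185551), COUP-TFII, a regulator of vein and mesenchyme identity, rose from a low level. Its place is 96325938 to 96340263 of chromosome 15 (plus strand). It was at 0.985, 0.801 and 0.991 CPM in WT and 2.77, 2.71 and 2.70 CPM in KO, a log2FC of 1.58 (SE 0.203, adjusted p = 4.16e-08 by edgeR). The gain of NR2F2 was small in CPM beside the loss of NR2F1, and the summed level of the 3 COUP-TF genes was 244 to 261 CPM in WT and 114 to 131 CPM in KO. NR2F6, the third member, was at 143, 130 and 134 CPM in WT and 128, 127 and 111 CPM in KO. Its log2FC was -0.15 (adjusted p = 0.0165 by edgeR). The call on NR2F6 was lost without WT replicate 1 (adjusted p = 0.0854), without KO replicate 3 (0.193) and with upper-quartile scaling (0.0506, all edgeR).

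HNF4G (ENSG00000164749), a fatty-acid-binding receptor of gut and kidney epithelium, rose from 0.255, 0.20 and 0.27 CPM in WT to 5.37, 6.05 and 5.23 CPM in KO. The log2FC was 4.55 (SE 0.235, adjusted p = 1.49e-17 by edgeR), and the groups were far apart. Its close relative HNF4A, the hepatocyte factor, had 2 counts in a single KO library and none elsewhere. The 5 hepatocyte markers, ALB among them, summed to at most 0.78 CPM in any library.

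All 3 genes of the NR4A subfamily fell. NR4A1 (NUR77), NR4A2 (NURR1) and NR4A3 (NOR1) are orphan receptors whose ligand pocket is closed, and they are known as immediate early genes that growth factors, calcium and cyclic AMP switch on within minutes. They lie on different chromosomes, NR4A1 (ENSG00000123358) on chromosome 12 from 52022832 to 52059507, NR4A2 (ENSG00000153234) on chromosome 2 from 156324437 to 156342348 and NR4A3 (ENSG00000119508) on chromosome 9 from 99821855 to 99866891. NR4A1 was at 36.7, 35.0 and 31.8 CPM in WT and 8.79, 9.10 and 7.75 CPM in KO. This was a log2FC of -2.01 (SE 0.0803, adjusted p = 1.21e-20 by edgeR). NR4A2 was at 18.5, 16.5 and 18.2 CPM in WT and 4.64, 4.98 and 4.55 CPM in KO, with a log2FC of -1.89 (SE 0.0985, adjusted p = 1.7e-17 by edgeR). NR4A1 and NR4A2 therefore fell by a like factor, 4.04 times and 3.72 times, and the difference between their fold changes was not tested. NR4A3 was counted 66, 57 and 22 times in WT and 0, 0 and 1 times in KO. Its count ratio was 147 (95% exact interval from counting, 25.9 to 5840) and its log2FC was -6.74 (SE 0.515, adjusted p = 3.9e-13 by edgeR). Without KO replicate 3, the only KO library with a read, the fitted value was -8.67, which rests on a group with no count. Summed over the subfamily, the level was 52.0 to 57.6 CPM in WT and 12.4 to 14.1 CPM in KO.

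NR6A1 (ENSG00000148200), the germ cell nuclear factor that shuts off pluripotency genes in the embryo, fell as well. It lies on the minus strand of chromosome 9, from 124517275 to 124771311. NR6A1 was at 7.34, 8.08 and 7.29 CPM in WT and 1.18, 1.11 and 0.899 CPM in KO. The log2FC was -2.81 (SE 0.159, adjusted p = 1.7e-16 by edgeR).

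Because the NR4A genes are known targets of the cyclic AMP response element, the element was looked for in the promoter windows of RefSeq (GRCh38.p14), from 250 bases before to 50 bases after each annotated start. Windows were held for 41 of the 46 receptors, in all 96 windows, and VDR, HNF4G, NR2F6, NR4A2 and NR0B2 had none. The half-site TGACG, read on both strands, was in 24.6% of all 35116 windows and in 21 of the 96 receptor windows (21.9%), which belong to 15 receptors. The full element TGACGTCA, which contains the half-site on each strand, was in 1.85% of all windows and in 2 of the receptor windows (2.08%), those of NR2E1 and NR6A1. The NR4A3 window held 4 half-sites, and 0.313% of all windows held 4 or more. That cutoff equals the number in the NR4A3 window itself, so the share is no measure of how unusual this window is. The stretches of NR4A3 and NR6A1 are shown because both genes fell and hold these letters. Distances are counted from the transcript start that RefSeq annotates in the window, which for NR4A3 is base 99821885 and lies downstream of the first base of the gene given above. NR4A3 is given from 117 to 13 bases before that start, at chr9:99821768-99821872 on the plus strand, and NR6A1 from 35 to 6 bases before its start, at chr9:124771317-124771346 on the minus strand. Capitals mark the half-sites of NR4A3, including the reverse complement CGTCA, and the full element of NR6A1.
NR4A3: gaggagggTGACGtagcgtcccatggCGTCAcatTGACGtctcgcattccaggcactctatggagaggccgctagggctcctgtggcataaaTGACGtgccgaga
NR6A1: gcagcggcgtgTGACGTCAggggagggagc
The NR4A1 windows held none of these letters. NR3C1, which rose, held the half-site in 3 of its windows, so the half-site was found on either side of the change, and a match here is a description of sequence only.

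Among the retinoid X receptors and the retinoic acid, fatty acid, oxysterol, vitamin D and thyroid hormone receptors that pair with them, only PPARG passed both thresholds. RXRA was at 54.1, 57.1 and 54.0 CPM in WT and 40.7, 42.6 and 43.8 CPM in KO, a log2FC of -0.38 (adjusted p = 5.13e-07 by edgeR). RXRB was at 39.3, 35.8 and 37.5 CPM in WT and 39.4, 43.9 and 45.1 CPM in KO, a log2FC of 0.19 (adjusted p = 0.0105 by edgeR). The call on RXRB was lost without WT replicate 2 (adjusted p = 0.0803), without KO replicate 3 (0.0621) and when all libraries were thinned to the smallest total (0.143, all edgeR). RXRG was counted at most 2 times in a library. Of the retinoic acid receptors, RARA fell from 26.8 to 29.5 CPM in WT to 16.8 to 19.1 CPM in KO (log2FC -0.63, adjusted p = 4.22e-09), RARG rose from 114 to 115 CPM to 129 to 133 CPM (log2FC 0.20, adjusted p = 4.9e-04, both edgeR), and RARB had no count. The sum of the RAR genes was 141 to 144 CPM in WT and 146 to 151 CPM in KO.

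Of the peroxisome proliferator-activated receptors, which sense fatty acids, PPARG passed both thresholds. PPARG (ENSG00000132170), the receptor of fat cell differentiation, was at 5.44, 6.07 and 4.95 CPM in WT and 2.03, 2.45 and 2.30 CPM in KO, a log2FC of -1.30 (SE 0.147, adjusted p = 2.89e-09 by edgeR). It lies on chromosome 3 from 12287368 to 12434356. PPARG was no longer called when the test was made against the fold threshold itself. PPARD, the most abundant of the 3 per exon length, fell from 61.3 to 66.0 CPM in WT to 39.6 to 42.0 CPM in KO (log2FC -0.65, adjusted p = 7.29e-12 by edgeR). PPARA was at 16.8 to 19.6 CPM in WT and 19.7 to 21.5 CPM in KO, and its log2FC of 0.15 missed the threshold (adjusted p = 0.0789 by edgeR). It was past the threshold without WT replicate 2 (0.0402) and with upper-quartile scaling (0.0384, both edgeR).

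The liver X receptors, which sense oxysterols, both rose. NR1H2 went from 48.8 to 50.0 CPM in WT to 65.6 to 67.3 CPM in KO (log2FC 0.42, adjusted p = 2.74e-08 by edgeR). NR1H3 went from 11.5 to 13.8 CPM to 16.8 to 20.4 CPM (log2FC 0.57, adjusted p = 1.41e-06 by edgeR), and the bile acid receptor NR1H4 had a single count. VDR, the vitamin D receptor, rose from 18.6 to 23.1 CPM in WT to 26.1 to 29.2 CPM in KO (log2FC 0.40, adjusted p = 3.6e-05 by edgeR). The xenobiotic receptors NR1I2 and NR1I3 were at 0 and at most 2 counts. THRA, thyroid hormone receptor alpha, was the tested receptor whose groups overlapped, at 26.7 to 31.3 CPM in WT and 30.3 to 31.1 CPM in KO, and THRB had no count. The testicular receptors went opposite ways, NR2C1 with a log2FC of -0.32 (adjusted p = 3.32e-05) and NR2C2 with 0.27 (adjusted p = 6.12e-05, both edgeR), and their summed level was 110 to 116 CPM in WT and 108 to 121 CPM in KO. The tailless-type receptors stayed untested, with no count for NR2E1 and 1 to 4 counts per library for NR2E3.

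**Figure D2:**
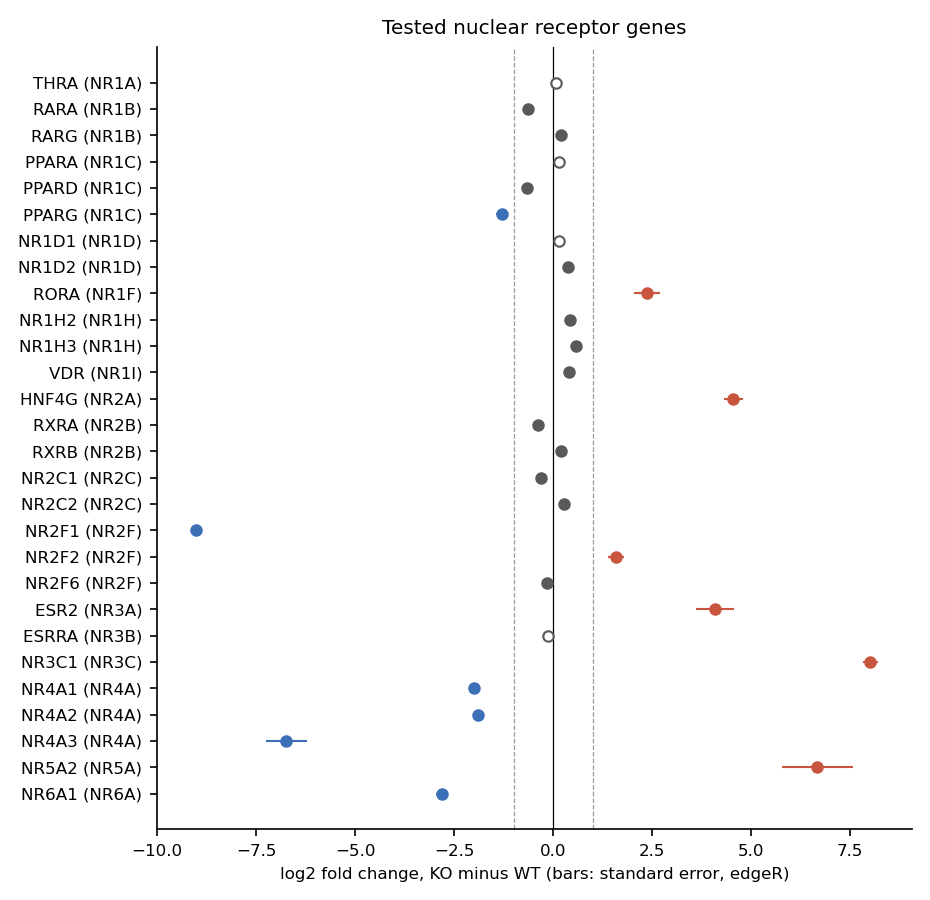
Log2 fold change (KO minus WT) of the 28 tested nuclear receptor genes, in the order of their subfamilies, which stand in brackets. Bars are SEs from edgeR, dashed lines mark log2 fold changes of -1 and 1, red and blue points passed both thresholds, filled grey points the adjusted p alone, and the 4 open points (THRA, PPARA, NR1D1 and ESRRA) neither.

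The receptors of the circadian clock bind a shared element, at which ROR proteins activate and REV-ERB proteins repress. RORA (ENSG00000069667) rose from 0.365, 0.20 and 0.45 CPM in WT to 2.16, 1.30 and 1.35 CPM in KO. It was counted 10, 6 and 5 times in WT and 53, 35 and 24 times in KO, and the log2FC was 2.37 (SE 0.325, adjusted p = 1.48e-07 by edgeR). RORA spans 741 kb of the minus strand of chromosome 15, from 60488284 to 61229302, and holds the antisense gene RORA-AS1, counted 9 to 22 times in WT and 17 to 28 times in KO. With library size scaled, RORA-AS1 had a log2FC of 0.41 and missed the threshold (adjusted p = 0.171 by edgeR). The limit on strand given for ESR2 and SYNE2 holds for RORA and RORA-AS1 as well. RORB had 1 count in all. The REV-ERB gene NR1D2 rose modestly, from 14.5 to 16.2 CPM in WT to 18.2 to 21.0 CPM in KO (log2FC 0.36, adjusted p = 1.92e-04 by edgeR). NR1D1 was at 11.4 to 12.4 CPM in WT and 12.6 to 13.6 CPM in KO, a log2FC of 0.14 that missed the threshold (adjusted p = 0.158 by edgeR).

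The clock genes themselves were described from a list of 15, of which 14 were tested. Of these, 3 rose and 10 fell at the adjusted p, beside 31.9% and 32.0% of all tested genes. Past both thresholds 1 rose and 5 fell, beside 8.3% and 7.73%, and the median log2FC was -0.62, against 0.00 over all tested genes. BMAL1, the activator whose transcription ROR and REV-ERB proteins set, rose from 4.24 ± 0.202 to 9.68 ± 0.672 CPM (SD, n = 3 each), a log2FC of 1.20 (adjusted p = 6.51e-11 by edgeR). NFIL3, a repressor under the same element, fell from 18 ± 1.64 to 6.71 ± 0.299 CPM (log2FC -1.43, adjusted p = 7.28e-15 by edgeR). CIART, a repressor of the clock, fell by 1.32 and NPAS2, a partner of BMAL1, by 1.26 on the log2 scale. The letters of the ROR element, TAGGTCA on either strand, were in 1.85% of all promoter windows and in 3 of the 22 windows of the 15 clock genes, those of BMAL1, NFIL3 and CRY2. Those of BMAL1 and NFIL3 are shown because the genes went opposite ways. The BMAL1 stretch, chr11:13277809-13277838 on the plus strand, runs from 19 to 48 bases after its RefSeq transcript start, and the NFIL3 stretch, chr9:91423823-91423852 on the minus strand, from 20 bases before to 9 after its own. Capitals mark the element, which NFIL3 holds as its reverse complement.
BMAL1: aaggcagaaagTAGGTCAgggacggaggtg
NFIL3: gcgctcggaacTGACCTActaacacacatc
CRY2, which holds the element too, had a log2FC of -0.20 (adjusted p = 0.0126 by edgeR). Of the receptors, RXRG, RARB and NR1H3 had the element in a window.

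Per kb of exon, the scale on which genes can be compared, NR2F6 was the most abundant receptor in both groups, at 49.1 to 53.9 CPM per kb in WT and 42.0 to 48.4 in KO. In WT it was followed by NR2F1 (25.7 to 26.7), RARG (22.2 to 22.5), ESRRA (14.4 to 15.2) and PPARD (13.7 to 14.8). The ranges of ESRRA and PPARD overlapped, and those of the others did not. In KO the order after NR2F6 was RARG (25.2 to 25.9), ESRRA (13.1 to 13.9), NR1H2 (12.3 to 12.6) and RXRB (10.1 to 11.6 CPM per kb), with no overlap between neighbours. NR3C1, at the floor in WT, where no place can be given to it, took place 16 in KO at 2.61 CPM per kb. NR2F1 went from place 2 in WT to 0.0469 CPM per kb in KO, among genes of a few counts. Despite its rise, NR3C1 stayed below RARG (25.6) and RXRA (3.51 CPM per kb) in KO. The summed level of all 46 genes, not per length, was 927 to 947 CPM in WT and 799 to 809 CPM in KO.

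**Figure D3:**
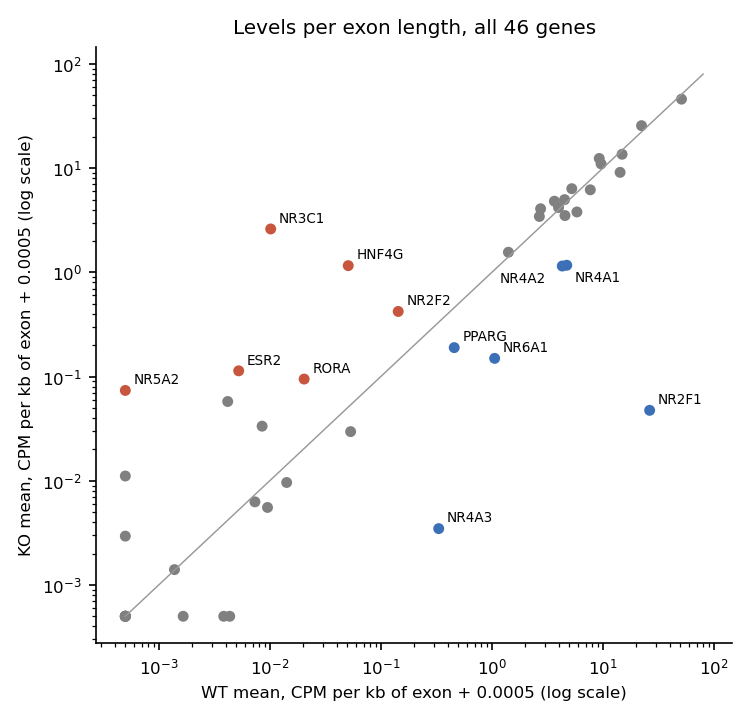
Mean level of all 46 nuclear receptor genes in WT (horizontal) and KO (vertical), in CPM per kb of exon plus 0.0005, both on log scales, each point a gene and the mean of 3 libraries. Red and blue points passed both thresholds and the line marks equal levels; NR3C1 lies above the line at 2.61 CPM per kb in KO and NR2F1 below it at 26.4 CPM per kb in WT.

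The proteins that work with the receptors, and the targets and ligand pathways after them, were described from lists. Each list's counts at the adjusted p stand beside 31.9% of all tested genes higher and 32.0% lower, and each median beside 0.00. Of 14 coactivators, 13 were tested, 5 rose and 3 fell at the adjusted p, with a median log2FC of 0.08. The p160 coactivators NCOA1, NCOA2 and NCOA3, which bind ligand-bound receptors directly, rose by 0.65, 0.41 and 0.50 on the log2 scale (adjusted p = 1.82e-11, 2.96e-07 and 1.02e-08 by edgeR). The acetyltransferase KAT2B went from 8.05 ± 0.157 to 36.9 ± 1.41 CPM (SD, n = 3 each), with a log2FC of 2.20 (adjusted p = 2.46e-22 by edgeR). NCOA7 fell from 1.42 ± 0.131 to 0.634 ± 0.0166 CPM (log2FC -1.15, adjusted p = 2.11e-04 by edgeR). All 11 corepressors were tested, 6 rose, 2 fell and none passed both thresholds, with a median of 0.12. The p160 genes were examined as a group after their values were seen.

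Unliganded glucocorticoid receptor is held by HSP90 and its co-chaperones. Of 10 such genes, all tested, 6 fell and 1 rose at the adjusted p, none passed both thresholds and the median was -0.22. The gene that rose, FKBP5, is itself a well-known target of the receptor and went from 202 to 342 CPM (log2FC 0.76, adjusted p = 2.0e-15 by edgeR). Among 17 glucocorticoid target genes, 15 were tested, and 6 rose and 8 fell, with a median of -0.35. The targets that rose besides FKBP5 were TSC22D3 (log2FC 0.60), KLF9 (0.64), MT2A (0.60), CEBPD (0.26) and CDKN1C. CDKN1C, a cell cycle inhibitor, was the one past both thresholds, at 2.61 ± 0.491 CPM in WT and 5.31 ± 0.795 CPM in KO (log2FC 1.03, adjusted p = 9.72e-07 by edgeR). Other targets went down, PER1 by 0.90, NFKBIA by 0.63 and SGK1 by 0.51 on the log2 scale. ERRFI1, a feedback inhibitor of the EGF receptor, fell the most of them, from 15.8 ± 1.01 to 4.74 ± 0.635 CPM (log2FC -1.74, adjusted p = 6.18e-16 by edgeR). The rise of NR3C1 thus stood beside targets that went both ways.

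Genes of retinoid handling changed strongly in both directions. Of 16 genes of retinoid uptake and metabolism, 8 were tested, 2 rose and 5 fell. STRA6, the cell-surface receptor that takes up retinol, went from 0.235 ± 0.0559 to 43.1 ± 1.67 CPM (SD, n = 3 each), a log2FC of 7.41 (adjusted p = 1.29e-29 by edgeR). ALDH1A1 and ALDH1A3, which make retinoic acid, fell, ALDH1A1 from 7.34 ± 0.521 to 0.0259 ± 0.0225 CPM (log2FC -7.76, adjusted p = 2.47e-20 by edgeR) and ALDH1A3 from 14.7 ± 1.39 to 0.218 ± 0.0952 CPM (log2FC -5.99, adjusted p = 3.79e-23 by edgeR). CRABP2, which carries retinoic acid to its receptors, fell from 65.9 ± 5.03 to 6.52 ± 0.79 CPM (log2FC -3.33, adjusted p = 1.86e-26 by edgeR). The third enzyme, ALDH1A2, averaged 0.38 CPM in WT and 0.276 CPM in KO and was not tested. Of 11 retinoic acid target genes, 6 were tested, 4 rose and 2 fell, and TGM2, a transglutaminase, fell by 5.76 on the log2 scale, while PLAAT4 rose by 1.98. STRA6, CRABP2, DHRS3 and CYP26A1 are on both lists, so the lists are not independent, and CYP26A1 was not tested.

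The targets of the lipid receptors held further large decreases. APOE and ABCA1, which load and export cholesterol and are classical liver X receptor targets, fell, whereas both liver X receptor genes rose. APOE went from 74.8 ± 7.92 to 3.06 ± 0.264 CPM (log2FC -4.60, adjusted p = 1.2e-28 by edgeR) and ABCA1 from 22.7 ± 1.92 to 1.26 ± 0.141 CPM (log2FC -4.18, adjusted p = 4.13e-24 by edgeR). Of the 7 tested genes of this list, 1 rose and 3 fell, with a median of -0.15. Of 12 tested PPAR targets, 6 rose and 5 fell, with a median of 0.05. CD36, a fatty acid transporter, fell from 6.36 ± 0.656 to 0.0447 ± 0.0101 CPM (log2FC -7.00, adjusted p = 2.55e-19 by edgeR), and FABP4, a fatty acid carrier that PPARG drives in fat cells, had no count in KO and was at least 20.6-fold lower there, against a floor of 3 counts over the group. Of the enzymes of fatty acid oxidation in the list, CPT2 rose by 0.57 and ACADM by 0.41 on the log2 scale, and CPT1A, the entry enzyme, had a log2FC of -0.07 and missed the threshold.

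Of 8 tested oestrogen targets, 4 rose and 3 fell, with a median of 0.07. IGFBP4, which binds insulin-like growth factors, fell from 16.3 ± 1.08 to 0.0933 ± 0.0857 CPM (log2FC -7.46, adjusted p = 1.96e-23 by edgeR) and CA12, a carbonic anhydrase, fell by 2.15 on the log2 scale. TFF1 and TFF3 had no count. Among genes of steroid metabolism, 7 of 18 were tested, 4 rose and 1 fell, with a median of 0.25, and the gene that fell was SULT2B1, a cholesterol sulfotransferase, by 1.90 on the log2 scale. CYP11A1 and CYP17A1, the first steps of steroid synthesis, had no count and an average of at most 0.083 CPM. Of 4 tested genes of thyroid hormone and vitamin D metabolism, 2 rose, among them CYP27B1, which activates vitamin D, by 0.37 on the log2 scale, and the median was 0.12. Over the 12 lists, 150 different genes were held and 109 tested, of which 40 rose and 46 fell at the adjusted p, beside 31.9% and 32.0% of all tested genes. Past both thresholds 5 rose and 18 fell, beside 8.3% and 7.73%.

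**Figure D4:**
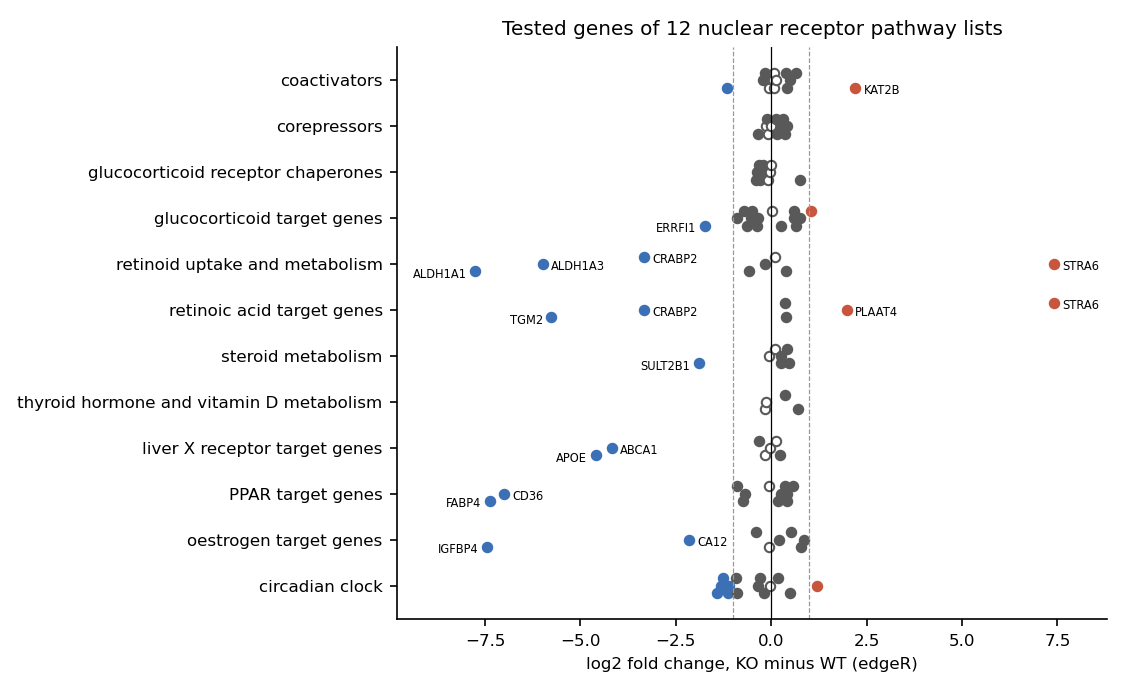
Log2 fold change (KO minus WT) of the tested genes of 12 nuclear receptor pathway lists, each point a gene. Red and blue points passed both thresholds, filled grey points the adjusted p alone and open points neither, dashed lines mark -1 and 1, and names are printed for genes beyond 1.5; STRA6 at 7.41 and ALDH1A1 at -7.76 are the outermost points.

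The position of the 12 receptors past both thresholds was described by the next 2 tested genes on each side. Of these 48 neighbours, 12 were past both thresholds, where 8.3% of all tested genes were higher and 7.73% lower, and 10 of them had the direction of the receptor beside them. Among those 10, NR2F1-AS1 and ENSG00000214770 overlap the receptor gene itself. The authors report a nearly doubled chromosome number in the KO line, with gains and losses of single chromosomes. The part of copy number in these changes was not tested. Around NR3C1, LINC01844 (log2FC 2.55, adjusted p = 1.76e-18) and ARHGAP26 (1.36, adjusted p = 2.19e-16, both edgeR) rose, both on the side of the lower coordinates, while YIPF5 (0.00) and PRELID2 (0.02) on the far side missed the threshold. Around NR2F2, RGMA, ARRDC4 and IGF1R rose by 1.90, 2.67 and 1.25 on the log2 scale, over distances of 1620 to 3240 kb. NR2F1 had NR2F1-AS1, at 0 counts in KO, and the non-coding gene ENSG00000249984, which fell by 3.29, on one side, whereas FAM172A, 23.1 kb away on the other, was at 0.07 and missed the threshold. OLFML2A, 5.82 kb from NR6A1, fell by 4.41. The neighbours of NR4A1 and NR4A3 were not past both thresholds, and 2 neighbours went against their receptor, PI15 beside HNF4G (-3.07) and ACVR1C beside NR4A2 (1.88). The higher receptors spanned 14.3 to 741 kb of the genome (median 158) and the lower ones 11.4 to 254 kb (median 40.9), and with 6 genes each no test was made of that difference.

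**Figure D5:**
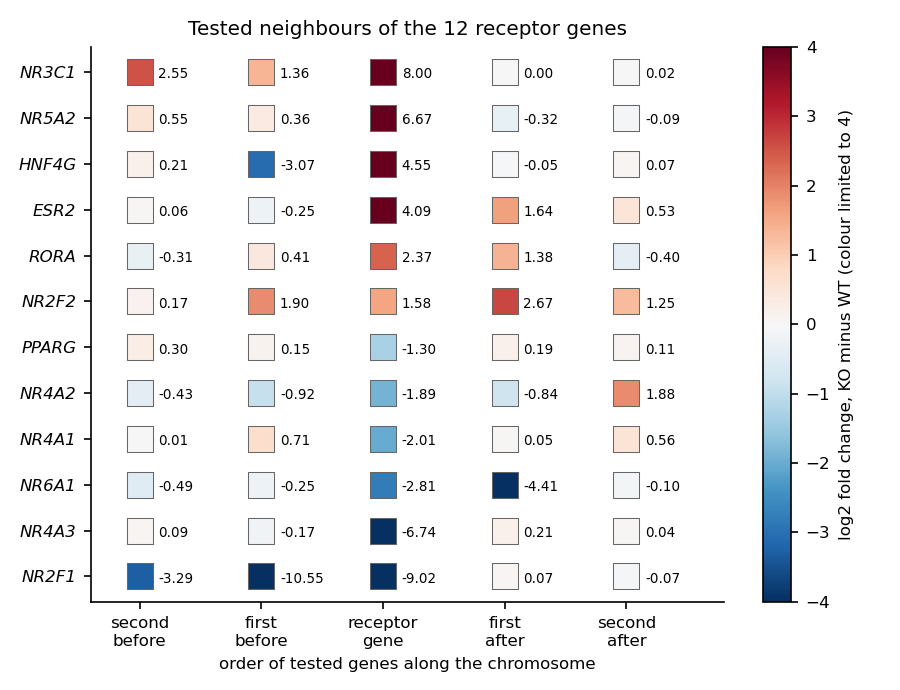
Log2 fold change (KO minus WT) of the 12 receptor genes past both thresholds (middle column) and of the 2 nearest tested genes on each side in the order of the chromosome. Colour follows the printed value and is limited to 4 in either direction; both neighbours on the left of NR3C1 were higher (2.55 and 1.36) and both on its right were near 0.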

How the data were processed

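RNA-seq of A2780 WT and A2780 CDK12 KO cells was analysed, with 3 libraries per group assigned from the genotype in the labels. The authors deposited raw counts per Ensembl gene, with no normalization. FastQC, STAR, HTSeq and build GRCh38 are named in the submitters' processing notes, and the reads were stranded and single-ended. Tool versions, annotation release, strand setting of the counting and handling of multi-mapping reads are not given in the sources used here.

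Counts were tested in R 4.3.3 with edgeR 4.0.16: filterByExpr (minimum count 10, minimum total 15), TMM scaling, two-sided quasi-likelihood test, Benjamini-Hochberg adjustment over 16198 genes. The biological coefficient of variation was 4.35%. CPM used TMM-scaled totals, which ranged from 11105224 to 29961758. Identifiers were matched to GENCODE 44 (56321 genes, 93.1%; all 46 members), which gave positions and exon lengths. Intervals of count ratios are exact binomial at 95% on summed counts and, since reads carried no molecular identifiers, cover counting error only. Promoter sequences are from RefSeq (GRCh38.p14). Alternatives were voom/limma (limma 3.58.1), DESeq2 1.42.0, other scalings, filters and thresholds, and each library left out. The test was checked on simulated counts.

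Members and gene lists were chosen with earlier results of these data known. Members past both thresholds and NR3C1 were given in full, the others by level or counts, and list genes past both thresholds by name (the 4 largest where there were more). List genes named beyond that rule (NCOA1, NCOA2, NCOA3, FKBP5 and the other genes past the adjusted p alone, and genes with no call) were chosen after their values were seen. Protein sequences were not used here.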

Additional observations from a re-analysis of the deposited data

How the results depend on the processing

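The 12 receptors past both thresholds were called in the same direction by edgeR, voom/limma and DESeq2, under median-of-ratios and upper-quartile scaling, at an adjusted p under 0.01 and with each library left out. With at least 10 counts in every library, which leaves 21 receptors tested, the higher calls past both thresholds fell from 6 to 1 because NR3C1, HNF4G, ESR2, NR5A2 and RORA were no longer tested, NR2F1 and NR4A3 were not tested either, and over all genes 568 were higher and 684 lower. Tested against the fold threshold, 756 of all genes were higher and 931 lower, in place of 1345 higher and 1252 lower, and of the receptors 6 were higher and 5 lower, without PPARG. With libraries thinned to the smallest total, an alternative chosen after seeing the data, 26 receptors were tested, and 4 were higher and 6 lower, since ESR2 and NR5A2 were no longer tested. Without any filter beyond 1 count in total, NR3C2 joined the higher calls. With each library left out, all genes past both thresholds numbered 1377 to 1502 higher and 1269 to 1369 lower, receptors past the adjusted p 12 to 13 higher and 10 to 11 lower, and genes of the pathway lists 35 to 39 higher and 42 to 46 lower. THRA, not called, ranged from -0.0031 to 0.14 in log2 fold change over the omitted libraries, the lowest without WT replicate 1 (adjusted p = 0.973, edgeR), and the cause was not tested. Of 355 values of single receptors under the alternatives, 344 kept direction and side of the threshold, 6 lost the call (RXRB and NR2F6), 4 gained it (PPARA and ESRRA) and 1, that of THRA, changed sign. The 355 leave out receptors that an alternative no longer tested. They also leave out the test against the fold threshold, in which PPARG lost its call. The median log2 fold change of all genes was 0.00 under TMM and median-of-ratios scaling and 0.03 under upper-quartile scaling. No paired analysis was possible because the labels number the libraries 1 to 6 and give the groups no shared replicate numbers. At 3 counts per library, levels under 0.1 to 0.27 CPM could not be told from absence.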
